A study of Mus musculus with 12 samples.

Results

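The genes described here are the ligands and receptors of the classical axon guidance pathways as they were expressed in mouse lung fibroblasts. They were the rows of the deposited expression table whose symbols name a semaphorin of classes 3 to 7, a plexin, a neuropilin, an ephrin, an Eph receptor, a Slit, a Robo, a netrin, a netrin G ligand or an Unc5 receptor. The rule found 70 of the 20606 genes in the table, 37 ligands and 33 receptors in 12 classes, and it used symbols alone. Bulk polyA RNA sequencing had been run on 12 libraries of purified lung fibroblasts in 4 groups of 3. Matrix fibroblasts (MF) and the subgroup abbreviated MyoF (Myo in the sample titles, spelled out nowhere) were each taken from normal mice (N-MF, N-MyoF) and from mice with lung metastasis (M-MF, M-MyoF), of breast cancer by the series title, and the study compared metastasis with normal lung within each subgroup. The labels give the groups no age, sex, strain or genotype, no tumour line and no sorting marker, and do not tell whether separate mice gave the 3 libraries of a group. The p-values therefore reflect only how far these libraries spread, and that spread may be technical.

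Semaphorins, ephrins, Slits and netrins were first known as cues that attract or repel growing axons. They are secreted or membrane-bound proteins that act on receptors on the facing cell and change its cytoskeleton and adhesion. Outside the nervous system the same families shape vessels, airways and immune cell traffic, and in the lung semaphorin 3 signals through neuropilins and plexins take part in branching and alveolar growth. Secreted class 3 semaphorins mostly bind a neuropilin, which holds the ligand, and an A-type plexin or plexin D1, which carries the signal. Membrane-bound semaphorins of classes 4 to 7 mostly bind plexins directly, ephrins bind Eph receptor tyrosine kinases, Slits bind Robos, and netrins bind Dcc, neogenin and the Unc5 receptors.

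Values were deposited as FPKM, which scales a gene's fragments by its transcript length and by the mapped total, so levels of different genes can be set side by side per length. The FPKM values summed to 528176 to 532244 per library in N-MF, 571294 to 574574 in M-MF, 537057 to 541506 in N-MyoF and 614237 to 618478 in M-MyoF. Per library 11466 to 12682 genes reached 1 FPKM. Sums over members, classes and markers are given as deposited. Fibroblast markers (8 of 8 detected in each group) summed to 21228 to 21473 FPKM in N-MF, 15345 to 15472 in M-MF, 3625 to 3685 in N-MyoF and 2095 to 2118 in M-MyoF, and smooth muscle and myofibroblast markers to 121 to 126, 216 to 218, 3644 to 3750 and 2872 to 2933. Of 8 smooth muscle and myofibroblast markers, 5 were higher and 2 lower in M-MyoF than in N-MyoF as deposited. Hhip was at 2190 to 2266 FPKM in N-MyoF and 774 to 802 in M-MyoF, and Acta2 at 617.2 to 640.5 and 935 to 958. All groups also held RNA of other cell types. Epithelial markers summed to 2255 to 2306 FPKM in N-MF, 3026 to 3049 in M-MF, 18760 to 19256 in N-MyoF and 15867 to 16395 in M-MyoF, and neutrophil markers to 33.8 to 37.9, 243 to 253, 132 to 144 and 12851 to 13208. Of the 12 marker lists, only Marco of the macrophage list (N-MF and M-MF) and Otor of the cartilage list (M-MF) were at 0 throughout a group. Libraries with the same number deviated from their group means together, so every comparison was repeated with the number as a block and without the 4 libraries numbered 3.

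Nrp1, the neuropilin that binds Sema3a and VEGF, was the member with the highest level in N-MF, M-MF and N-MyoF. It averaged 96.4 ± 2 FPKM (SD, n = 3) in N-MF. Efna1, a membrane-anchored ephrin, was the highest in M-MyoF at 42.2 ± 1.77 FPKM. The 6 members with the highest means held 59.2% of the summed FPKM of all 70 members in N-MF, 54.2% in M-MF, 50.6% in N-MyoF and 45.6% in M-MyoF. In N-MF these were Nrp1, Slit3, Sema3c, Efna1, Ntn1 and Plxnb2, and in M-MyoF they were Efna1, Sema3c, Nrp1, Epha2, Plxnb2 and Nrp2. The 70 members together summed to 398 ± 1.99 FPKM in N-MF, 384 ± 1.85 in M-MF, 498 ± 4.17 in N-MyoF and 438 ± 2.54 in M-MyoF.

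Of the 70 members, 49 passed the filter for testing, which asked for at least 1 FPKM in at least 3 libraries, and 21 did not. Those 21 never exceeded 1.4 FPKM in any library. They were Efna3, Efnb3, Epha5, Epha6, Epha8, Ephb1, Ephb2, Ntn3, Ntn5, Ntng1, Plxna3, Plxnb3, Robo3, Sema4f, Sema4g, Sema5b, Sema6b, Sema6c, Slit1, Unc5a and Unc5d. Robo3, Slit1 and Unc5d, which are known mainly from the nervous system, stayed at or below 0.04 FPKM. Ntng1, a netrin G ligand, was listed at 0.02 or 0.03 FPKM in M-MyoF and at 0.17 to 0.24 in N-MyoF, while the MF libraries held 0.50 to 0.78. Class 3 semaphorins were the only class of more than 2 members in which every member passed the filter.

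**Figure D1:**
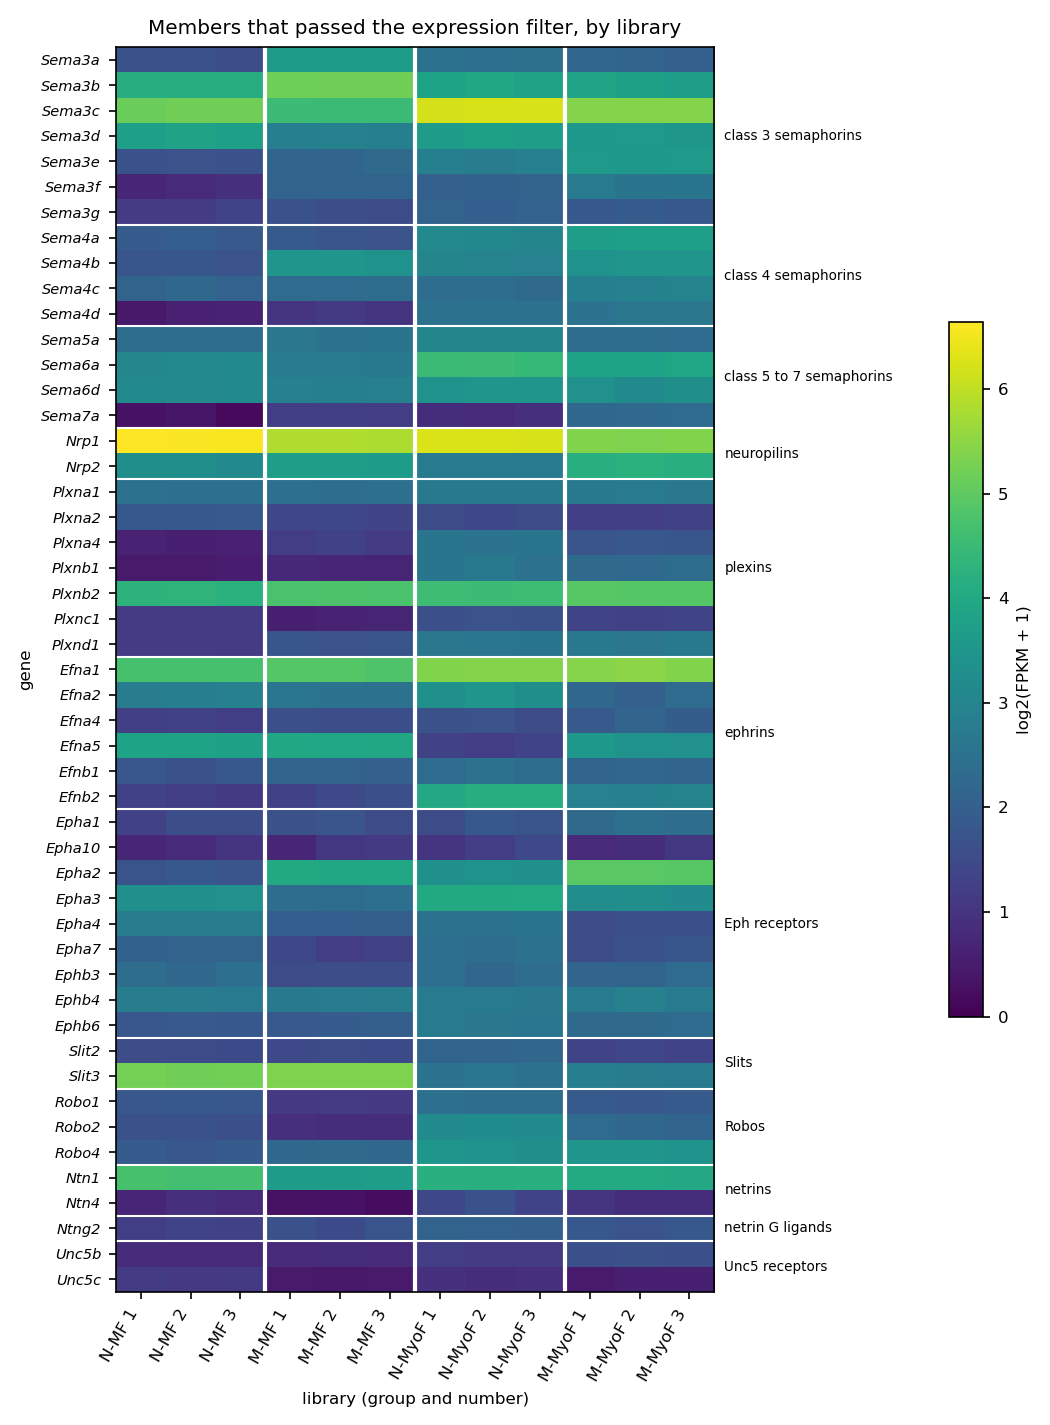
Levels of the 49 members that passed the filter, as log2(FPKM + 1), in each of the 12 libraries (columns, by group and number), with the genes (rows) ordered by class. Within a group the 3 libraries look alike, and Nrp1, Sema3c, Efna1 and Plxnb2 are high in all 4 groups while Slit3 is high in both MF groups only.

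Tests used limma on log2(FPKM + 1) over all 13300 genes that passed the filter, and a gene was called at a Benjamini-Hochberg adjusted p under 0.05. Most of the transcriptome was called in every comparison, so the number of members called says little by itself. Between M-MF and N-MF, 42 of the 49 tested members were called, 24 higher and 18 lower in M-MF, against 78.1% of all genes (46.3% higher and 31.8% lower). The groups did not overlap for 41 members and for 79.8% of all genes. At 2-fold or more, 5 members were higher and 0 lower, against 11.9% of all genes (9.32% higher and 2.54% lower). These counts on the log2(FPKM + 1) scale rest on the pseudocount and the scaling: they were 8 and 8 with a pseudocount of 0.1, 3 and 0 with 5, and 4 higher with 2, 3 or 4 lower under the 3 other scalings, and in mean FPKM 9 called members fell by 2-fold or more. The median log2 change was 0.13 over the members and 0.08 over all genes. Between M-MyoF and N-MyoF, 42 members were called, 15 higher and 27 lower in M-MyoF, against 80.7% of all genes (49.1% higher and 31.6% lower). The groups did not overlap for 42 members and for 82.2% of all genes. Here 4 members rose and 2 fell by 2-fold or more, against 14.6% of all genes (11.4% higher and 3.24% lower). With a pseudocount of 0.1 these were 4 and 6, with 5 they were 3 and 0, and under the 3 other scalings 4 rose and 5, 5 and 7 fell. In mean FPKM 8 called members fell by 2-fold or more in MyoF. The median log2 change was -0.18 over the members and 0.11 over all genes.

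The scaling of the libraries moved these splits. The median change of all genes between M-MF and N-MF was 0.08 as deposited and -0.09 after quantile normalization, and between M-MyoF and N-MyoF it went from 0.11 to -0.10. With quantile normalization 16 members were higher and 23 lower in M-MF, and 14 were higher and 33 lower in M-MyoF. Changes of the size of these shifts have no fixed sign. In bulk libraries fewer cells of a type and less RNA per cell cannot be told apart, and the marker lists moved in the same comparisons. All 7 tested mesothelial markers were higher in M-MF than in N-MF (summed level 265 to 270 against 17.0 to 18.3 FPKM). Macrophage and monocyte markers summed to 529 to 550 FPKM in M-MF and 50.2 to 60.6 in N-MF, with 2 of 6 tested higher and 2 lower. Chil3 alone was at 453 to 474 FPKM in M-MF and 7.46 to 8.96 in N-MF. All 6 atrial muscle markers were lower in M-MF (9.68 to 11.99 against 43.4 to 45.7 FPKM). In MyoF all 8 neutrophil markers and 6 of 7 tested mesothelial markers (262 to 271 against 136 to 141) were higher with metastasis. Marker counts here and below are as deposited. Upk3b of the mesothelial list lost its call in MyoF under each of the 3 other scalings. Lower in M-MyoF than in N-MyoF were 6 of 6 atrial muscle markers (140 to 145 against 996 to 1033), 6 of 6 cartilage markers (23.7 to 24.4 against 313 to 320) and 6 of 7 tested Schwann cell and neuron markers (21.9 to 23.8 against 56.8 to 60.9). The part of these cells in the members' changes was not tested.

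Class 3 semaphorins are shown first with the sequences upstream of 4 of them, because Sema3d, Sema3a, Sema3e and Sema3c lie in this order on chromosome 5, with 535869 bases between the first pair and 421791 between Sema3a and Sema3e, and yet changed in different directions. Each line gives the 250 bases before the start that RefSeq lists on GRCm38.p6, 5′ to 3′ on the plus strand, which is the genes' strand. Capitals mark a match to the hypoxia response element core ACGTG. The windows are chr5:12382916-12383165 for Sema3d, chr5:13396534-13396783 for Sema3a, which lies inside the annotated extent of the gene, chr5:14025026-14025275 for Sema3e and chr5:17574566-17574815 for Sema3c.
Sema3d: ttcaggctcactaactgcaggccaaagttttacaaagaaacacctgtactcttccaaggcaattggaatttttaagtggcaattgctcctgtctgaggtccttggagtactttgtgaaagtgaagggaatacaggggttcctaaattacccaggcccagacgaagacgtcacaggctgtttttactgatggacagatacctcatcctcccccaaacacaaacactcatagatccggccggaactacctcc
Sema3a: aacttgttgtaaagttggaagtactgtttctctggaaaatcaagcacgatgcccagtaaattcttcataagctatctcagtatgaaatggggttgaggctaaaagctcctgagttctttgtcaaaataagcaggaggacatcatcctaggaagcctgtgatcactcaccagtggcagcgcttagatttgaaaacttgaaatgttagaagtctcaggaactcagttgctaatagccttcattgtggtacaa
Sema3e: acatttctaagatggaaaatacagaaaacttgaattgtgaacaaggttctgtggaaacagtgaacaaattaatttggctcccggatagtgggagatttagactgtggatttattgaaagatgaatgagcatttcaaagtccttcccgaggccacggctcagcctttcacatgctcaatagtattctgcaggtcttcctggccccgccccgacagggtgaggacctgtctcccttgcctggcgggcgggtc
Sema3c: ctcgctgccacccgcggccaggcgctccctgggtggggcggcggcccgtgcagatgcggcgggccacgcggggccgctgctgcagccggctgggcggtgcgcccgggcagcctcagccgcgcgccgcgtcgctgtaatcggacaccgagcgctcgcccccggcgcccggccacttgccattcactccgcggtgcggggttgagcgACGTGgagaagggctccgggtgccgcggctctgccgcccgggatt
The 4 windows differed in base composition. The Sema3c window had 78.4% G and C and 39 CG dinucleotides, and the Sema3a window 40.8% and 2. The windows of Sema3d and Sema3e lay between, with 46.8% and 4, and 48% and 7. Over all 32841 RefSeq windows the medians were 52.4% and 6, and over the 77 windows of the 61 members with an entry 64.4% and 15. Of 5 motifs searched on both strands, only the ACGTG core was found in these windows, at 45 bases before the start of Sema3c. A match is a description of the letters and no binding was measured.

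All 7 class 3 semaphorins were called in MF, 5 higher and 2 lower with metastasis, and 6 were called in MyoF, 2 higher and 4 lower. Of all genes 46.3% were called higher and 31.8% lower in MF, and 49.1% and 31.6% in MyoF, so calls were common. Sema3a, which collapses growth cones through Nrp1 and A-type plexins, lies at chr5:13124822-13603485. Its levels were 2.14, 2.17 and 1.99 FPKM in N-MF and 11.49, 11.6 and 11.33 in M-MF. The groups did not overlap, and Sema3a rose by 2.01 ± 0.0467 on the log2 scale (SE; limma adjusted p = 4.75e-13), 5.46-fold in mean FPKM. In MyoF it read 4.61, 4.4 and 4.49 FPKM in normal lung and 3.58, 3.51 and 3.08 with metastasis. Here it fell, by a log2 change of -0.33 ± 0.0467 (adjusted p = 2.77e-05). The difference between the 2 effects was 2.34 ± 0.066 (adjusted p = 1.71e-11).

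Sema3b and Sema3f are neighbours on chromosome 9 with 72258 bases between them, and Sema3f is the classical ligand of Nrp2. Sema3b (chr9:107597674-107609241) measured 16.45, 16.7 and 16.51 FPKM in N-MF and 35.05, 35.74 and 35.93 in M-MF, a rise of 1.06 ± 0.0444 (adjusted p = 1.59e-10) with no overlap. In MyoF it was 13.37, 14.62 and 13.24 FPKM in normal and 13.71, 12.99 and 12.04 in metastatic lung, ranges that overlapped, and the change of -0.08 ± 0.0444 was not called as deposited (adjusted p = 0.0979), although Sema3b was called lower in M-MyoF under each of 3 other scalings. Sema3f (chr9:107681499-107710475) rose in both subgroups. Its levels went from 0.65, 0.72 and 0.86 FPKM in N-MF to 3.3, 3.37 and 3.4 in M-MF (1.32 ± 0.0537, adjusted p = 1.15e-10), and from 3.08, 3.17 and 3.31 in N-MyoF to 5.48, 4.83 and 5 in M-MyoF (0.54 ± 0.0537, adjusted p = 8.42e-07). The effects differed between subgroups for both genes, by 1.14 ± 0.0627 for Sema3b and 0.78 ± 0.076 for Sema3f, each larger in MF.

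Sema3c, a ligand of both neuropilins that is required for septation of the cardiac outflow tract, was the class 3 semaphorin with the highest mean. Sema3c (chr5:17574816-17730268) stood at 34.44, 35.79 and 35.72 FPKM in N-MF and 22.54, 22.04 and 22.14 in M-MF. In MyoF it stood at 72.4, 73.72 and 73.92 in normal and 41.25, 41.26 and 41.65 in metastatic lung. It fell in both subgroups without overlap, by a log2 change of -0.64 ± 0.0221 in MF (adjusted p = 2.15e-11) and by a log2 change of -0.81 ± 0.0221 in MyoF (adjusted p = 1.81e-12). Sema3d fell as well, by a log2 change of -0.88 in MF and -0.17 in MyoF, and Sema3e, a ligand of plexin D1 that needs no neuropilin, rose by 0.52 and 0.71. Sema3g rose by 0.36 in MF and fell by a log2 change of -0.20 in MyoF.

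The class 3 sum and its makeup both differed between groups. The sum was 70.9 ± 1.24 FPKM in N-MF and 84.6 ± 0.402 in M-MF (SD, n = 3), and 116 ± 1.34 in N-MyoF and 86.8 ± 1.34 in M-MyoF. Sema3c made up 49.8% ± 0.329 of the class in N-MF and 26.3% ± 0.429 in M-MF, while Sema3b went from 23.4% ± 0.266 to 42.0% ± 0.349 and Sema3a from 2.96% ± 0.148 to 13.6% ± 0.194. In MyoF Sema3c kept the largest share, 63.1% ± 0.277 in normal and 47.7% ± 0.976 in metastatic lung, and Sema3a stayed at 3.87% ± 0.135 and 3.90% ± 0.259.

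**Figure D2:**
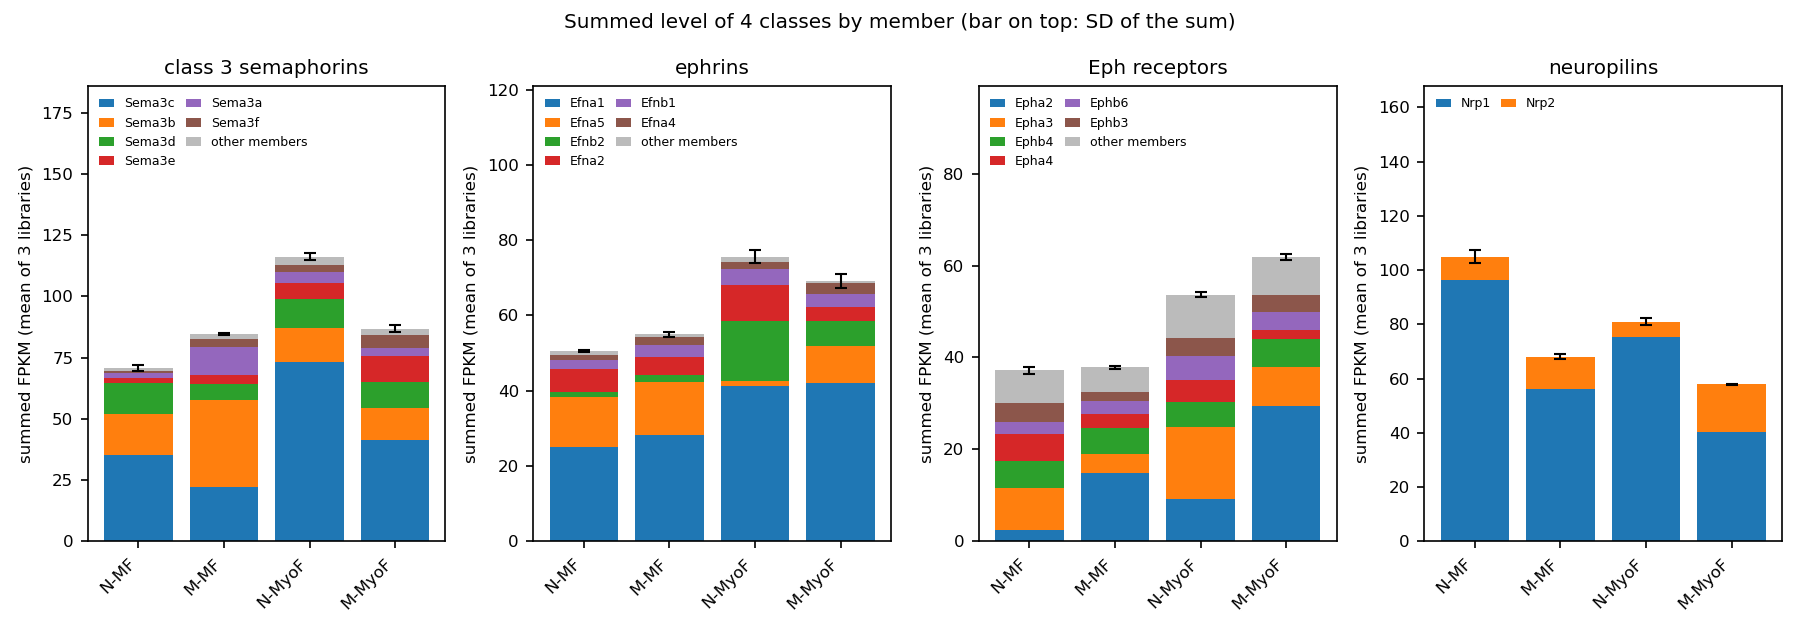
Summed FPKM of class 3 semaphorins, ephrins, Eph receptors and neuropilins in the 4 groups, as stacked bars of the members' means over 3 libraries, with the SD of the sum on top. Sema3b replaces Sema3c as the largest class 3 segment in M-MF, the Efnb2 segment is largest in N-MyoF, and Epha2 grows from 2.41 to 14.8 FPKM in MF and from 9.26 to 29.5 in MyoF.

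Class 4 semaphorins are membrane-bound ligands of B-type plexins, best known from immune cells. Their sum rose from 9.20 ± 0.396 to 17.9 ± 0.459 FPKM in MF and from 24.6 ± 0.713 to 34.8 ± 0.868 in MyoF. Sema4b (chr7:80186870-80226646) had levels of 2.42, 2.44 and 2.22 FPKM in N-MF, 9.99, 10.13 and 9.57 in M-MF, 7.07, 6.87 and 6.71 in N-MyoF and 9.58, 9.97 and 9.92 in M-MyoF. N-MF was the low group, and the 2 metastatic groups overlapped. Sema4b rose by 1.70 ± 0.0384 in MF (adjusted p = 3.63e-13) and by 0.46 ± 0.0384 in MyoF (adjusted p = 1.61e-07), a difference of 1.24 ± 0.0542 (adjusted p = 9.46e-10).

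Sema4a, which acts on T cells and vessels, measured 2.81, 2.92 and 2.62 FPKM in N-MF and 2.68, 2.34 and 2.27 in M-MF, which overlapped, and 7.76, 7.62 and 7.14 in N-MyoF and 12.14, 12.45 and 12.41 in M-MyoF, which did not. It rose by 0.65 ± 0.0505 in MyoF (adjusted p = 7.47e-08), and its change of -0.14 ± 0.0505 in MF (adjusted p = 0.0208) was lost without the libraries numbered 3 (adjusted p = 0.0572), without N-MF 1 (0.0519) or 2 (0.0788) and without M-MF 2 (0.0684) or 3 (0.087). Sema4d, the ligand of Plxnb1 and of CD72 on lymphocytes, was scarce in N-MF. It read 0.36, 0.52 and 0.57 FPKM there, 1.03, 1.17 and 1.05 in M-MF, 4.67, 4.77 and 4.67 in N-MyoF and 4.73, 5.18 and 5.22 in M-MyoF. Sema4d rose in MF by 0.49 ± 0.0577 (adjusted p = 4.92e-06), and the change of 0.08 ± 0.0577 in MyoF was not called (adjusted p = 0.203). Sema4c, a ligand of Plxnb2, rose by 0.56 in MyoF and by 0.19 in MF, the latter not called after median-ratio scaling or quantile normalization. Lymphocyte markers summed to 3.47 to 3.85 FPKM in N-MF and 3.00 to 3.54 in M-MF. In MyoF they summed to 15.4 to 16.6 in normal and 11.1 to 15.25 in metastatic lung. Of 4 tested lymphocyte markers, 1 was lower in M-MF, and 1 was higher and 2 lower in M-MyoF. Nkg7 was at 5.64 FPKM in M-MyoF 3, against 2.11 in M-MyoF 1 and 2.13 in M-MyoF 2. Neutrophil markers summed to 33.8 to 37.9 FPKM in N-MF and 243 to 253 in M-MF. Their sums were 132 to 144 in N-MyoF and 12851 to 13208 in M-MyoF. The part of blood cells in the Sema4a and Sema4d levels was not tested.

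Among classes 5 to 7, Sema7a and Sema6a moved in opposite directions. Sema7a, a lipid-anchored semaphorin that binds Plxnc1 and beta-1 integrins, was at 0.25, 0.32 and 0.12 FPKM in N-MF and 1.36, 1.4 and 1.31 in M-MF, and at 0.82, 0.75 and 0.87 in N-MyoF and 3.76, 3.78 and 3.98 in M-MyoF. Metastatic libraries were above normal ones in both subgroups, with rises of 0.94 ± 0.0595 (adjusted p = 1.03e-08) and 1.42 ± 0.0595 (adjusted p = 1.38e-10). The difference of -0.48 ± 0.0841 between the 2 effects, larger in MyoF, had the other sign (0.0817) with a pseudocount of 0.1 in place of 1. Plxnc1, its receptor, fell by a log2 change of -0.51 in MF and -0.31 in MyoF.

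Sema6a, a transmembrane ligand of Plxna2 and Plxna4, measured 7.46, 7.72 and 7.83 FPKM in N-MF and 5.68, 5.75 and 5.39 in M-MF. The MyoF libraries were higher, at 21.88, 22.39 and 20.92 in normal and 13.44, 13.29 and 14.2 in metastatic lung. It fell by a log2 change of -0.39 ± 0.0377 in MF (adjusted p = 6.97e-07) and by a log2 change of -0.63 ± 0.0377 in MyoF (adjusted p = 4.77e-09), without overlap. Sema6d also fell in both, by a log2 change of -0.25 and -0.18. Sema5a fell in MyoF by a log2 change of -0.70 and rose in MF by 0.21, a rise not called after quantile normalization.

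The neuropilins, the ligand-binding partners of class 3 semaphorins, changed in opposite directions. Nrp1 (chr8:128358591-128505476) was at 98.46, 96.16 and 94.47 FPKM in N-MF, 56.67, 56.01 and 55.62 in M-MF, 76.09, 75.93 and 74.12 in N-MyoF and 40.46, 39.71 and 40.77 in M-MyoF. It fell by a log2 change of -0.77 ± 0.0216 in MF (adjusted p = 3e-12) and by a log2 change of -0.89 ± 0.0216 in MyoF (adjusted p = 6.19e-13), to 0.582 and 0.535 of the normal mean. Nrp2 (chr1:62703317-62818692), which binds Sema3f and VEGF-C, was at 8.85, 8.79 and 8.09 FPKM in N-MF, 12.23, 12.03 and 11.55 in M-MF, 5.57, 5.82 and 5.56 in N-MyoF and 17.36, 17.77 and 17.34 in M-MyoF. Metastatic libraries lay above normal ones in both subgroups, and Nrp2 rose by 0.43 ± 0.0376 in MF (adjusted p = 2.42e-07) and 1.48 ± 0.0376 in MyoF (adjusted p = 9.3e-13). The difference of -1.04 ± 0.0531 was called (adjusted p = 3.96e-09), the rise being larger in MyoF.

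Nrp1 remained the larger neuropilin in each group. The share of Nrp2 in the neuropilin sum was 8.17% ± 0.253 in N-MF, 17.5% ± 0.302 in M-MF, 6.97% ± 0.149 in N-MyoF and 30.3% ± 0.575 in M-MyoF. Both genes are also expressed by endothelial cells. Of 10 endothelial markers, 7 were higher and 3 lower in M-MF than in N-MF (summed level 271 to 274 against 200 to 205 FPKM), and 4 were higher and 4 lower in M-MyoF than in N-MyoF (578 to 579 against 516 to 526). Cldn5 was at 73.4 to 74.6 FPKM in N-MF and 147 to 150 in M-MF, and Tek at 47.7 to 48.9 and 16.1 to 17.0. The part of endothelial RNA in the neuropilin changes was not tested.

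Plexins carry the semaphorin signal across the membrane. Plxnb2 (chr15:89155546-89182018) was the plexin with the highest level, at 18.68, 18.94 and 17.94 FPKM in N-MF, 25.51, 26.63 and 26.11 in M-MF, 22.74, 22.54 and 22.83 in N-MyoF and 29.1, 28.64 and 28.58 in M-MyoF. It rose in both subgroups without overlap, by 0.47 ± 0.0265 (adjusted p = 3e-09) and 0.33 ± 0.0265 (adjusted p = 1.05e-07). Plxna4, a partner of neuropilins for Sema3a and a receptor of Sema6a, showed opposite changes. Its levels were 0.54, 0.5 and 0.53 FPKM in N-MF and 1.3, 1.44 and 1.27 in M-MF, a rise of 0.62 ± 0.0421 (adjusted p = 2.24e-08), but 4.97, 4.78 and 4.93 in N-MyoF and 2.37, 2.47 and 2.43 in M-MyoF, a log2 change of -0.78 ± 0.0421 (adjusted p = 1.7e-09). The difference was 1.40 ± 0.0595 (adjusted p = 7.28e-10).

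Plxnb1, the receptor of Sema4d, was low in MF libraries, with 0.39, 0.4 and 0.42 FPKM in N-MF, 0.68, 0.65 and 0.62 in M-MF, 4.99, 5.43 and 4.7 in N-MyoF and 3.87, 3.81 and 4.11 in M-MyoF. It fell in MyoF by a log2 change of -0.29 ± 0.0497 and rose in MF by 0.23 ± 0.0497, the latter not called after quantile normalization (adjusted p = 0.0714). Plxnd1, the receptor of Sema3e, rose in MF by 0.55 and Plxna2 fell in both subgroups, by a log2 change of -0.42 and -0.25. Plxna1 was called in neither metastasis comparison as deposited, with levels of 4.27 to 5.70 FPKM over all 12 libraries.

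**Figure D3:**
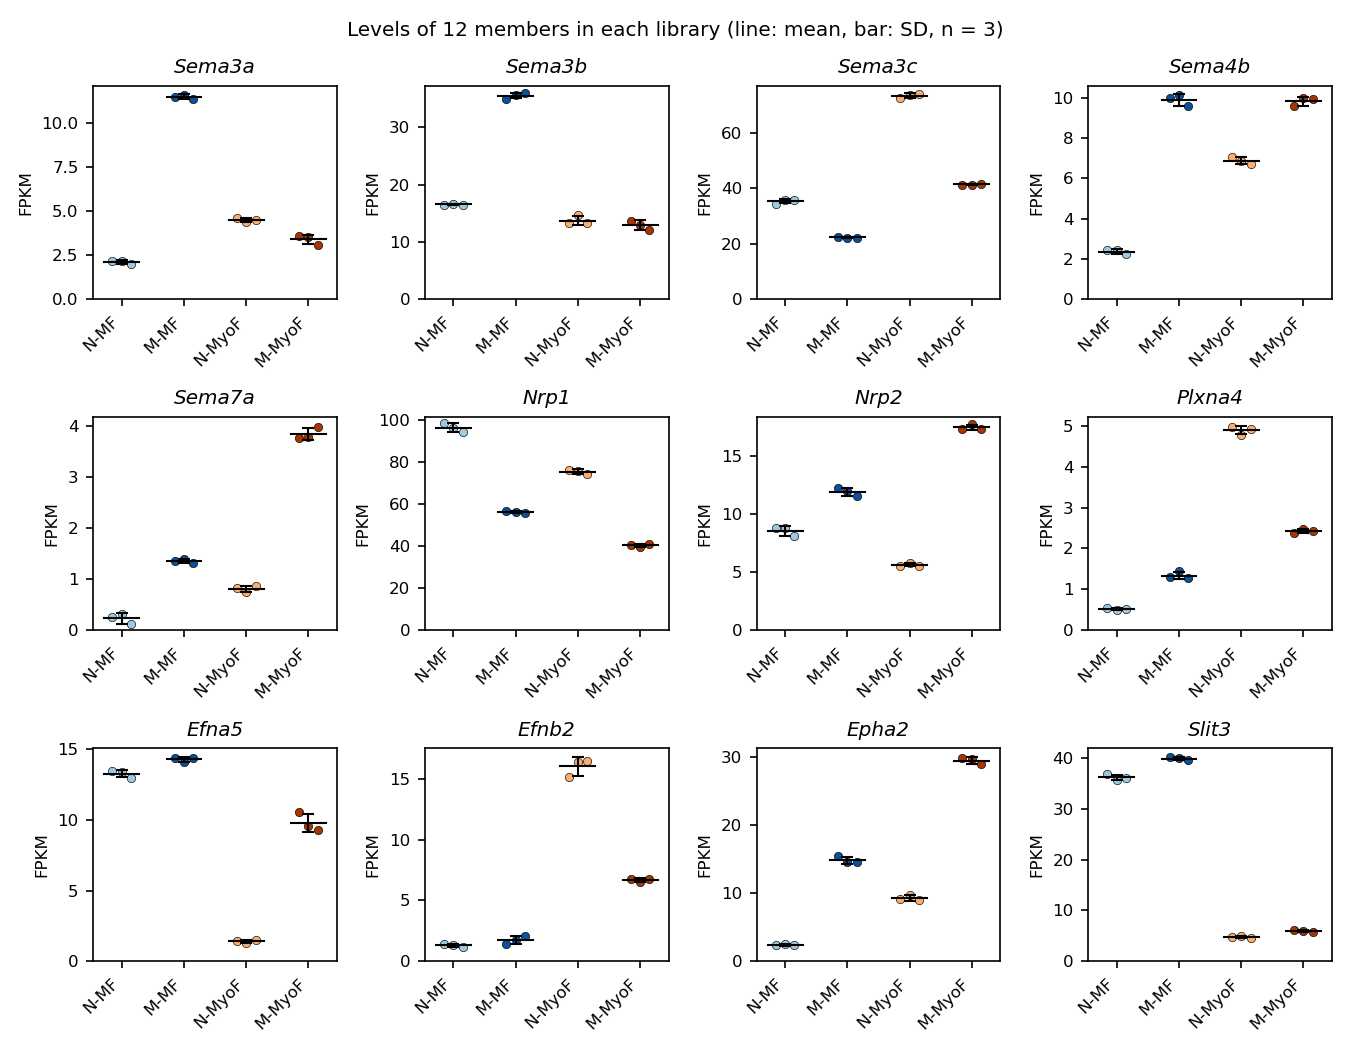
FPKM of 12 members in each library (points), with the mean (line) and SD (bar, n = 3) of each group; each panel has its own axis starting at 0. Sema3a is high in M-MF alone, Efna5 is low in N-MyoF alone, Efnb2 is high in N-MyoF, and Epha2 is above its normal level in both metastatic groups.

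The ephrins split by type. A-type ephrins, held to the membrane by a lipid anchor, summed to 46.1 ± 0.130 FPKM in N-MF, 49.6 ± 0.797 in M-MF, 54.3 ± 0.810 in N-MyoF and 58.7 ± 1.89 in M-MyoF. B-type ephrins, which span the membrane, summed to 4.41 ± 0.235, 5.39 ± 0.130, 21.3 ± 0.962 and 10.4 ± 0.0929. Efna1 (chr3:89271730-89280951), a ligand of Epha2, made up most of the A type. It was at 25.13, 24.89 and 25.16 FPKM in N-MF, 28.35, 28.69 and 27.24 in M-MF, 40.63, 41.32 and 41.66 in N-MyoF and 42.47, 43.78 and 40.27 in M-MyoF, the MyoF libraries lying above all MF libraries. Its change in MF was 0.16 ± 0.0307 (adjusted p = 4.13e-04) as deposited and -0.06 after quantile normalization, so it has no fixed direction. The change of 0.03 ± 0.0307 in MyoF was not called as deposited (adjusted p = 0.349), although Efna1 was called lower in M-MyoF under each of 3 other scalings.

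Efna5, a ligand of several EphA receptors, showed the largest rise in MyoF among the tested members. Efna5 (chr17:62602957-62881317) was at 1.42, 1.29 and 1.52 FPKM in N-MyoF and 10.53, 9.54 and 9.29 in M-MyoF, with no overlap, a rise of 2.16 ± 0.0467 (adjusted p = 2.02e-13) or 6.94-fold in mean FPKM. In MF it was high in both conditions, at 13.46, 13.36 and 12.99 FPKM in N-MF and 14.36, 14.11 and 14.38 in M-MF, and the change of 0.10 ± 0.0467 was not called (adjusted p = 0.0695), although these groups did not overlap. The difference of the effects was -2.06 ± 0.0661 (adjusted p = 5.28e-11). Of the 8 fibroblast markers, 0 were called higher and 5 lower in M-MyoF than in N-MyoF. The part of matrix fibroblast RNA in the Efna5 rise was not tested.

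Efnb2 and Efna2 fell in MyoF. Efnb2 (chr8:8617235-8661242), the ligand of Ephb4 and a mark of arterial endothelium and mural cells, read 15.18, 16.42 and 16.51 FPKM in N-MyoF and 6.75, 6.52 and 6.79 in M-MyoF, a log2 change of -1.15 ± 0.0729 (adjusted p = 9.48e-09). The MF libraries held 1.44, 1.34 and 1.18 FPKM in N-MF and 1.43, 1.74 and 2.06 in M-MF, groups that overlapped. The MF change of 0.24 ± 0.0729 (adjusted p = 0.00981) was lost without the libraries numbered 3 (adjusted p = 0.192), with median-ratio scaling (0.0599) and with quantile normalization (0.534). Efna2 was at 6, 6.12 and 6.35 FPKM in N-MF, 5.09, 4.77 and 4.68 in M-MF, 9.09, 10.09 and 8.8 in N-MyoF and 3.72, 3.13 and 3.99 in M-MyoF. It fell by a log2 change of -0.29 ± 0.0667 in MF (adjusted p = 0.00143) and by a log2 change of -1.17 ± 0.0667 in MyoF (adjusted p = 3.28e-09). Pericyte markers summed to 685 to 713 FPKM in N-MyoF and 703 to 737 in M-MyoF, with 2 of 8 higher and 4 lower. Lower in M-MyoF were also 6 of 6 atrial muscle, 6 of 6 cartilage and 6 of 7 tested Schwann cell and neuron markers. The part of these cells in the falls of Efnb2 and Efna2 was not tested.

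Among 14 Eph receptors, the receptor tyrosine kinases for ephrins, Epha2 stood out. Its window chr4:141300971-141301220 on the plus strand of GRCm38.p6 (RefSeq), 250 bases before the listed start, is shown because it was the member window with a pair of matches to the TEAD motif GGAATG, marked in capitals and both on the minus strand, at 243 and 56 bases before the start.
Epha2: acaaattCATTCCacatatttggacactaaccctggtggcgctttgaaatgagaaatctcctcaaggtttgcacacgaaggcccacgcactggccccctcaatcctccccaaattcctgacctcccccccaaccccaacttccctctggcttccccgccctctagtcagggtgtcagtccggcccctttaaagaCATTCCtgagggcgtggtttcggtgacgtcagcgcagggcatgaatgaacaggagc
GGAATG on either strand was in 12.6% of all 32841 windows and in 11.7% of the member windows. For the other motifs the shares of all windows and of member windows were 16.6% and 15.6% for ACGTG, 6.75% and 3.9% for the AP-1 motif TGANTCA, 7.02% and 2.6% for the STAT motif TTCNNNGAA, and 7.25% and 6.49% for the NF-kappaB motif. In the 5 windows printed, no match overlapped a match of another motif. Efnb3, Plxna1, Sema3b, Slit1, Sema3f, Unc5d, Sema6a, Ntn1 and Plxna4 were not among the 61 members with a window.

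Epha2 (chr4:141301221-141329384), a receptor of Efna1 that many carcinomas express, was at 2.33, 2.54 and 2.37 FPKM in N-MF and 15.45, 14.54 and 14.55 in M-MF, and at 9.07, 9.71 and 8.99 in N-MyoF and 29.78, 29.66 and 28.92 in M-MyoF. All metastatic libraries lay above all normal ones. Epha2 rose by 2.21 ± 0.0387 in MF (adjusted p = 3.19e-14), 6.15-fold in mean FPKM, and by 1.57 ± 0.0387 in MyoF (adjusted p = 6.78e-13), 3.18-fold. The difference of 0.64 ± 0.0547 was called (adjusted p = 5.32e-07). Epha2 made up 6.49% ± 0.296 of the Eph receptor sum in N-MF and 39.2% ± 1.39 in M-MF, and 17.2% ± 0.763 in N-MyoF and 47.6% ± 0.959 in M-MyoF. Epithelial cells also express Epha2, and the epithelial keratin Krt8 rose in the same comparisons, from 4.65 to 6.08 FPKM in N-MF to 164 to 171 in M-MF and from 20.6 to 24.5 in N-MyoF to 377 to 402 in M-MyoF. Of the 8 epithelial markers 6 were higher and 2 lower in M-MF, and 3 were higher and 3 lower in M-MyoF, where the sum was below that of N-MyoF. Cdh1 of the same list was at 1.63 to 1.97 FPKM in N-MF and 1.44 to 1.61 in M-MF. In MyoF it was at 6.86 to 7.32 in normal and 5.4 to 5.73 in metastatic lung. Mesothelial markers were also higher with metastasis, 7 of 7 tested in MF and 6 of 7 in MyoF. The part of epithelial, mesothelial or tumour cells in the Epha2 rise was not tested.

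Several other Eph receptors fell. Epha3 fell by a log2 change of -0.96 in MF and -0.79 in MyoF, Epha4 by a log2 change of -0.81 and -0.91, and Epha7 by a log2 change of -0.79 and -0.78. Ephb3 fell in MF by a log2 change of -0.79, from 3.68 to 4.39 FPKM in N-MF to 1.86 to 1.97 in M-MF, and its change of -0.12 in MyoF was not called as deposited. Epha1, an epithelial Eph receptor, rose in MyoF by 0.67 and was not called in MF. The Eph receptor sum as deposited moved little in MF, from 37.2 ± 0.701 to 37.8 ± 0.326 FPKM, and from 53.7 ± 0.571 to 61.9 ± 0.611 in MyoF. The summed FPKM of whole libraries was also higher with metastasis in both subgroups. Ephb4, the receptor of Efnb2, kept between 5.28 and 6.37 FPKM in all 12 libraries, and its small called change in MyoF (0.10) had the other sign under each of 3 scalings.

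Slits are secreted repellents and Robos their receptors. Slit3 (chr11:35121456-35708507) was far higher in MF than in MyoF libraries, with 36.76, 35.76 and 36.03 FPKM in N-MF, 40.18, 39.91 and 39.57 in M-MF, 4.72, 5.05 and 4.55 in N-MyoF and 6.13, 5.85 and 5.68 in M-MyoF. It rose with metastasis in MyoF by 0.25 ± 0.0356 (adjusted p = 2.28e-05). The MF change of 0.14 ± 0.0356 (adjusted p = 0.00349) was not called with equal sums or median-ratio scaling and was -0.11 after quantile normalization. Slit2 fell in MyoF by a log2 change of -0.81, from 3.39 to 3.57 FPKM to 1.52 to 1.64, and was at 1.75 to 1.93 in all 6 MF libraries. Robo1 and Robo2, the main Slit receptors outside endothelium, fell in both subgroups, Robo1 by a log2 change of -0.68 and -0.52 and Robo2 by a log2 change of -0.77 and -0.98.

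Robo4, the Robo of endothelial cells, was at 2.82, 2.48 and 2.81 FPKM in N-MF, 3.72, 3.9 and 3.63 in M-MF, 10.19, 9.46 and 8.71 in N-MyoF and 10.06, 9.94 and 9.54 in M-MyoF. It rose in MF by 0.36 ± 0.0547 (adjusted p = 5.33e-05), and its change of 0.06 ± 0.0547 in MyoF was not called as deposited (adjusted p = 0.363). Of the 10 endothelial markers 7 were higher and 3 lower in M-MF than in N-MF. Their sum was 271 to 274 FPKM in M-MF and 200 to 205 in N-MF, and Cldn5 alone was at 147 to 150 and 73.4 to 74.6. The sums were higher in the MyoF than in the MF libraries. The part of endothelial RNA in the Robo4 levels was not tested. Robo3 lies 2022 bases from Robo4 and was listed at 0.03 FPKM or less.

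Netrins are secreted laminin-like cues. Ntn1 (chr11:68209364-68386826), the netrin of Dcc and the Unc5 receptors, was at 24.88, 23.94 and 24.17 FPKM in N-MF and 11.8, 11.41 and 12.05 in M-MF, and at 17.5, 17.07 and 17.69 in N-MyoF and 15.66, 15.64 and 15.04 in M-MyoF. The groups did not overlap in either subgroup. It fell by a log2 change of -0.99 ± 0.0299 in MF (adjusted p = 6.06e-12) and by a log2 change of -0.16 ± 0.0299 in MyoF (adjusted p = 2.40e-04), a difference of -0.83 ± 0.0423 (adjusted p = 4.04e-09). Ntn4, a netrin of basement membranes, fell by a log2 change of -0.51 and -0.58.

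Ntng2, a lipid-anchored netrin G ligand, was at 1.33, 1.54 and 1.45 FPKM in N-MF, 2.13, 1.8 and 2.31 in M-MF, 3.32, 3.26 and 3.07 in N-MyoF and 2.58, 2.22 and 2.55 in M-MyoF. It rose in MF by 0.33 ± 0.066 (adjusted p = 4.87e-04) and fell in MyoF by a log2 change of -0.29 ± 0.066 (adjusted p = 0.00131). Unc5b, a netrin receptor, was low in all groups. It was at 0.78, 0.72 and 0.72 FPKM in N-MF, 0.74, 0.84 and 0.75 in M-MF, 1.31, 1.25 and 1.23 in N-MyoF and 2.07, 2.12 and 2.05 in M-MyoF. It rose in MyoF by 0.44 ± 0.0433 (adjusted p = 7.09e-07) with no overlap, and its MF groups overlapped. Unc5c fell in both, by a log2 change of -0.66 and -0.34. Dcc, the attractive netrin receptor, was listed at 0.05 FPKM or less in every library, and its relative neogenin (Neo1) averaged 4.99 FPKM in N-MF and 8.68 in N-MyoF.

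Of the 49 tested members, 10 were called higher with metastasis in both subgroups (20.4%, against 36.7% of all genes). These were Efna4, Epha2, Nrp2, Plxnb2, Sema3e, Sema3f, Sema4b, Sema4c, Sema7a and Slit3. Another 16 were called lower in both (32.7%, against 21.2% of all genes), namely Efna2, Epha3, Epha4, Epha7, Nrp1, Ntn1, Ntn4, Plxna2, Plxnc1, Robo1, Robo2, Sema3c, Sema3d, Sema6a, Sema6d and Unc5c. Under the 3 other scalings 9, 8 and 7 of the 10 higher members were left, with Slit3 missing each time. All of the 16 lower members were still called lower in both without the libraries numbered 3. Opposite calls were made for 10 members (20.4%, against 8.57% of all genes), namely Efnb1, Efnb2, Ephb6, Ntng2, Plxna4, Plxnb1, Sema3a, Sema3g, Sema4a and Sema5a. Only 6 of these 10 were left without the libraries numbered 3, when Efnb2, Ephb6, Sema3g and Sema4a dropped out, and the numbers left were 9, 8 and 6 under the 3 scalings.

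**Figure D4:**
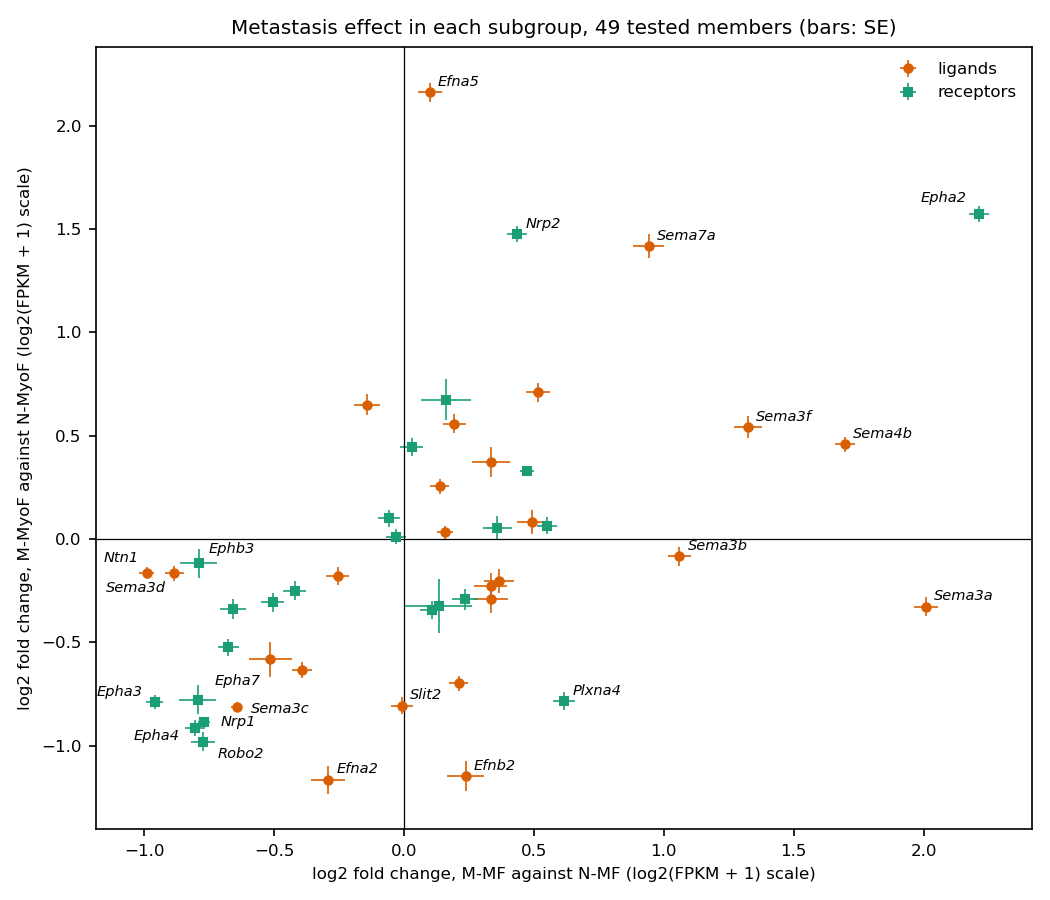
Log2 fold change with metastasis in MF (horizontal) and in MyoF (vertical) of the 49 tested members, on the log2(FPKM + 1) scale, with ligands as circles, receptors as squares and the SE as bars. Epha2 (2.21 and 1.57) lies far up in both, Sema3a (2.01 and -0.33) in MF alone, Efna5 (0.10 and 2.16) in MyoF alone, and Epha3, Epha4, Epha7, Nrp1, Robo2 and Sema3c form a group that fell in both.

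The difference between the MF and MyoF effects was called for 42 of 49 members, 25 with the more positive effect in MF and 17 with it in MyoF, against 64.4% of all genes (26.4% and 38%). At 2-fold or more there were 5 in favour of MF and 2 in favour of MyoF, against 7.1% of all genes (3.83% and 3.27%), and 9 and 2 with a pseudocount of 0.1 or 1 and 1 with 5. The 5 were Sema3a, Plxna4, Efnb2, Sema4b and Sema3b, and the 2 were Efna5 and Nrp2. Without the libraries numbered 3 the difference was called for 33 members. With equal sums per library 26 were called in favour of MF and 11 in favour of MyoF.

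Between the subgroups in normal lung, members were mostly higher in MyoF. Of 49 tested members 45 were called, against 82% of all genes. Of these, 9 were higher in N-MF and 36 in N-MyoF, against 24.5% and 57.6% of all genes, and the groups did not overlap for 46 members and 82.4% of all genes. At 2-fold or more, 2 were higher in N-MF and 14 in N-MyoF, against 16.8% of all genes (4.88% and 11.9%), and the 14 became 20 with a pseudocount of 0.1, 2 with 5 and 9 after quantile normalization. The median log2 difference of N-MF from N-MyoF was -0.59 over the members and -0.21 over all genes, and -0.29 and 0.02 after quantile normalization. Slit3 (2.69 ± 0.0356, 7.58-fold, adjusted p = 1.16e-15) and Efna5 (2.57 ± 0.0467, adjusted p = 2.68e-14) were the members higher in N-MF by 2-fold. The largest differences toward N-MyoF were those of Efnb2 (-2.88 ± 0.0729, adjusted p = 7.34e-13), Plxnb1 (-2.10 ± 0.0497), Plxna4 (-1.95 ± 0.0421) and Sema4d (-1.95 ± 0.0577). All 4 tested class 4 semaphorins, all 4 tested semaphorins of classes 5 to 7 and all 3 tested Robos were called higher in N-MyoF as deposited, but Sema4c changed sign (0.10) and Sema6d lost its call after quantile normalization, and Sema4c also lost it with median-ratio scaling. Both neuropilins were higher in N-MF, by 0.35 and 0.53.

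The same comparison moved the markers of other cells. In N-MyoF 9 of 10 endothelial markers (516 to 526 against 200 to 205 FPKM in N-MF), 8 of 8 epithelial markers, 8 of 8 pericyte markers (685 to 713 against 96.2 to 100.2) and 7 of 7 tested Schwann cell and neuron markers (56.8 to 60.9 against 6.27 to 7.44) were higher. So were 6 of 6 atrial muscle markers (996 to 1033 against 43.4 to 45.7), 6 of 6 cartilage markers (313 to 320 against 18.9 to 19.5), 8 of 8 neutrophil markers, and 6 of 7 tested mesothelial markers (136 to 141 against 17.0 to 18.3). Abcc9 of the pericyte list changed sign with median-ratio scaling and quantile normalization. Prph of the Schwann cell and neuron list and Cxcr2 of the neutrophil list lost their calls with quantile normalization. The part of other cells in the members' differences was not tested.

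In metastatic lung 44 of 49 members were called, against 85.1% of all genes. Of these, 10 were higher in M-MF and 34 in M-MyoF, against 19.1% and 66% of all genes, and the groups did not overlap for 43 members and 85.6% of all genes. At 2-fold or more these were 3 and 9, against 13.6% of all genes (4.74% and 8.82%), and the 9 became 15 with a pseudocount of 0.1, 1 with 5 and 6 with median-ratio scaling or quantile normalization. After quantile normalization 17 members were called higher in M-MF and 24 in M-MyoF. Slit3 (2.57 ± 0.0356, adjusted p = 2.5e-15), Sema3a (1.51 ± 0.0467, adjusted p = 7.26e-12) and Sema3b (1.40 ± 0.0444, adjusted p = 9.46e-12) were higher in M-MF by 2-fold or more. Sema4a (-1.96 ± 0.0505), Plxnb1 (-1.58 ± 0.0497), Sema4d (-1.54 ± 0.0577) and Efnb2 (-1.49 ± 0.0729) had the largest differences toward M-MyoF. Sema4b, which differed by a log2 change of -1.23 between N-MF and N-MyoF, was not called here as deposited (0.01 ± 0.0384, adjusted p = 0.82). Under each of the 3 other scalings Sema4b was called higher in M-MF. Markers of several other cell types were again higher in M-MyoF than in M-MF. These were 8 of 8 neutrophil, 8 of 8 epithelial and 6 of 6 atrial muscle markers. So were 8 of 8 pericyte (703 to 737 against 95.6 to 104 FPKM) and 9 of 10 endothelial markers. Mesothelial markers were split, with 4 of 7 tested higher in M-MF and 3 in M-MyoF (265 to 270 against 262 to 271 FPKM). Macrophage and monocyte markers summed to 529 to 550 FPKM in M-MF and 213 to 225 in M-MyoF, of which Chil3 held 453 to 474 and 168 to 175. Of these, 2 of 6 tested were higher in M-MF and 4 in M-MyoF. Of 6 cartilage markers 1 was higher in M-MF and 5 in M-MyoF. The part of these cells in these differences was not tested. The normal and the metastatic subgroup comparison use different libraries.

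Genes of the same pathways outside the symbol rule were described from a pair of lists, and those named were picked after their values were seen. Of 24 co-receptors and adhesion partners, 16 were tested, and 8 rose and 3 fell in MF while 6 rose and 7 fell in MyoF, against 46.3% and 31.8% of all genes in MF and 49.1% and 31.6% in MyoF. The 6 rises in MyoF became 2 under each of the 3 other scalings, with Chl1, Itga1, Itgb1 and Met not called higher in any of them. Chl1, an adhesion molecule that joins Nrp1 in Sema3a responses of neurons, was at 0.06 to 0.09 FPKM in N-MF and 10.99 to 11.48 in M-MF, a rise of 3.52 ± 0.0428 (adjusted p = 1.31e-15), and at 1.04 to 1.35 over the MyoF libraries. Nfasc, another L1-type adhesion molecule, rose in MF by 2.50 ± 0.0664 and in MyoF by 0.40 ± 0.0664. Gpc1, a cell surface proteoglycan that binds Slits, rose in both, by 1.96 ± 0.0519 and 2.13 ± 0.0519. Rgmb, a ligand of neogenin, fell in both, by a log2 change of -0.79 and -0.25.

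Of 50 cytoplasmic effectors 47 were tested, and 16 rose and 20 fell in MF while 20 rose and 20 fell in MyoF, beside the shares of all genes given for the co-receptors. Under the 3 other scalings 13 to 15 rose and 24 to 28 fell in MF, and 13 or 14 rose and 25 to 27 fell in MyoF. Dpysl2, a collapsin response mediator that carries Sema3a signals to microtubules, fell by a log2 change of -0.81 ± 0.0157 in MF and -0.85 ± 0.0157 in MyoF. Its relative Dpysl5 was at 0.32 to 0.42 FPKM in N-MF and 3.35 to 3.50 in M-MF, a rise of 1.71 ± 0.0456 (adjusted p = 1.73e-12), and fell in MyoF by a log2 change of -0.48 ± 0.0456 (adjusted p = 5.89e-07). Limk1, the kinase that inactivates cofilin, rose by 1.25 and 0.89, and Fes, a tyrosine kinase of plexin signalling, by 0.96 and 1.77. Ngef, the exchange factor that couples Epha4 to RhoA, fell by a log2 change of -1.08 and -0.95, beside the falls of Epha4. Rhoa itself differed by 0.12 in MF and 0.18 in MyoF as deposited, and its sign changed in MF with median-ratio scaling and quantile normalization and in MyoF under all 3 scalings.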

How the data were processed

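The deposited values are FPKM, computed by the authors, with 2 decimals per the file headers and values; per the submitters' processing notes the build was GRCm38, with aligner, counter and annotation not given in the sources used here. Per the labels' protocols, RNA was taken up in Trizol, turned into cDNA by SMART-seq2 and made into libraries with a transposase. Since no read totals were used, depth is unknown and precision rests on the 3 libraries of a group. FPKM depends on the other RNA in a library, so a change in a few abundant genes can shift all others.

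The 70 members and all gene lists were chosen with earlier results of these data known, so no list is independent support. All 70 matched RefSeq genes by gene number (GRCm38.p6), which gave positions and upstream windows. A linear model with a mean for each of the 4 groups was fitted by limma 3.58.1 in R 4.3.3 to log2(FPKM + 1) of 13300 genes, with a mean-variance trend, and p-values were adjusted by Benjamini-Hochberg over all genes. Fold changes are on this scale and understate changes of low genes; SE is that of the fit. The code was tested on simulated data. Python 3.11.15, pandas 2.3.3, numpy 2.4.6 and matplotlib 3.10.9 were used for tables and figures.

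Full values are given for the members that a rule names. It takes, per comparison of groups, the 6 members with the largest change among those called, without overlap and averaging 2 FPKM or more in whichever group was higher, the 4 largest for the difference of effects, and the highest member of each class. Alternatives were pseudocounts of 0.1 and 5, no filter, a 5 FPKM filter, 3 scalings, the library number as a block, each library left out, the libraries numbered 3 left out, a fit on the compared groups only and a 2-fold threshold. The labels do not say what the library numbers mark. Over 1830 genes at 50 FPKM or more, deviations from the group mean were correlated between libraries of different groups. The correlations were 0.482 to 0.796 for 18 pairs with the same number and -0.683 to 0.38 for 36 pairs with different numbers. Libraries with the same number thus deviated together, for a reason that the labels do not give. The main fit did not use the number.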

Additional observations from a re-analysis of the deposited data

Results flagged for a closer look

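For 42 of the 49 tested members the effect of metastasis differed between MF and MyoF by the test of the difference itself (limma, adjusted over all genes), as it did for 64.4% of all genes, so such a difference was the common case in these libraries. The 23 listed here are among the 24 members described in full, which were picked partly for large changes, so their number says nothing about the members. Values are the MF effect minus the MyoF effect on the log2(FPKM + 1) scale. The ligands with a more positive effect in MF were Sema3a (2.34), Efnb2 (1.38), Sema4b (1.24), Sema3b (1.14), Efna2 (0.87), Sema3f (0.78), Ntng2 (0.62), Sema4d (0.41), Sema6a (0.24), Sema3c (0.17) and Efna1 (0.13). For Efna2, Sema6a and Sema3c the gene fell in both subgroups and fell less in MF. The ligands with a more positive effect in MyoF were Efna5 (-2.06), Ntn1 (-0.83), Sema4a (-0.79) and Sema7a (-0.48), and Ntn1 fell less in MyoF. The receptors with a more positive effect in MF were Plxna4 (1.40), Epha2 (0.64), Plxnb1 (0.53), Robo4 (0.30), Plxnb2 (0.14) and Nrp1 (0.12), where Nrp1 fell less in MF. Nrp2 (-1.04) and Unc5b (-0.41) had a more positive effect in MyoF. The differences of Efna1 and Plxnb2 were not called without the libraries numbered 3 (adjusted p of 0.0526 and 0.0744), and that of Efna1 was also lost without M-MF 2 (0.0547) or M-MyoF 3 (0.0514). Over all settings run, 18 of the 23 differences moved by more than 1.5 times, those of Efnb2, Nrp2, Ntn1, Sema3b and Sema4a being the exceptions. With pseudocounts of 5 and 0.1 the difference was 0.147 and 0.913 for Epha2, 0.612 and 2.19 for Plxna4, 0.101 and 0.939 for Sema4d, and 0.238 and 1.38 for Sema3f, so the sizes hold only for the scale used. No cause of these differences was tested.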

How the results depend on the processing

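The counts of called members were 42, 42, 42, 45 and 44 for the effect of metastasis in MF, that in MyoF, the difference between both effects, the subgroups in normal lung and the subgroups in metastatic lung. In the same order they were 26, 24, 25, 27 and 27 with a filter of 5 FPKM, which tested 29 members, and 5, 6, 7, 16 and 12 with a 2-fold threshold. With any 1 library left out they ranged over 40 to 42, 40 to 43, 38 to 42, 44 to 46 and 43 to 45. With the library number as a replicate block, the counts were 42, 41, 42, 46 and 44. The block made Ephb6 in MF, Ephb4 in MyoF and Robo1 in the difference miss the threshold, and brought in Epha1 in MF and in N-MF against N-MyoF and Slit3 in the difference. No other member's call changed with it. Without the 4 libraries numbered 3 the counts were 39, 39, 33, 45 and 43.

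Of 2408 repeats of values of the members described in full, 29 lost a call and 7 changed sign, and 2372 kept direction and side of the threshold. The causes were not tested. The sign changes were Efna1 (-0.0553) and Slit3 (-0.106) in M-MF against N-MF with quantile normalization, Ntng2 (0.0177 and 0.196) and Plxnb2 (0.119 and 0.0691) in M-MF against M-MyoF with median-ratio scaling and quantile normalization, and Sema7a in the difference of the effects with a pseudocount of 0.1 (0.0817). The Ntng2 call in that comparison (-0.17) was also lost without M-MF 2, M-MyoF 1 or M-MyoF 3. Among tested members a scaling changed signs of values of up to 0.16 in size in the metastasis comparisons and, with Efna4 in normal lung, of -0.36 between subgroups. Depth is unknown and limits low members most.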
